A study of Mus musculus with 12 samples.

Results

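The mouse IL1RAP family genes Il1rap, Il1rapl1 and Il1rapl2 and the LAR family receptor phosphatase genes Ptprd, Ptprs and Ptprf encode adhesion proteins that meet across the synaptic cleft. They are 6 of the 55335 genes in the deposited count matrices, picked by symbol, and transcripts of each were counted in all 12 animals. They were chosen with the lower level of Il1rap in heterozygous L6 corticothalamic (CT) nuclei already known, so that difference is described here without a test. To assess how MYT1L deficiency bears on these genes at postnatal day 21, single nucleus RNA sequencing (snRNAseq) libraries from the cortex of 6 wild type (WT) and 6 heterozygous (Het) mice of the MYT1L S710fsX strain were compared, each library from a different animal, with 3 males and 3 females per genotype. MYT1L is a zinc finger transcription factor of neurons, and the strain carries a germline frameshift allele, so all cells of a Het mouse are heterozygous. All animals, WT included, had been injected as newborn pups with AAV9 calling cards vectors (hyPB and H2b-tdT-SRT), so no animal was free of virus. Nuclei were purified on a density gradient, and nothing in the labels ties an animal to a litter.

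IL1RAP family proteins carry 3 immunoglobulin domains outside the cell and a Toll/interleukin-1 receptor domain inside. Il1rap encodes the accessory chain shared by interleukin-1 family receptors, and a synaptic form of it, like the protein of the X-linked intellectual disability gene Il1rapl1, sits on dendrites and recruits presynaptic terminals. Their partners there are the LAR phosphatases on the axon, which organize the release site through liprins and TRIO and also bind other dendritic proteins and heparan sulfate proteoglycans. In brain, very short exons called mini-exons decide which partners a LAR phosphatase accepts.

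The mini-exons of Ptprd are shown because binding to the proteins of Il1rap and Il1rapl1 depends on them, and because the counts used here are sums over all forms of a gene and cannot separate them. Mini-exon A is built from a 9 base exon at chr4:76139294-76139302 and an 18 base exon at chr4:76138556-76138573, and mini-exon B from a 12 base exon at chr4:76135545-76135556, all on the minus strand of mm10. They are annotated in 6, 5 and 6 of the 12 coding transcripts of Ptprd in GENCODE. Ptprf has an 18 base exon at the matching place, chr4:118252076-118252093 on the minus strand, in 1 of its 4 coding transcripts. Capitals mark the short exon and small letters the exons spliced to it, written 5′ to 3′ in the direction of transcription.
Ptprd mini-exon A, 9 bases: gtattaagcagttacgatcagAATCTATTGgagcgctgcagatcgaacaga
Ptprd mini-exon A, 18 bases: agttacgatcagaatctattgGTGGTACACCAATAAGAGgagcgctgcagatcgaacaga
Ptprd mini-exon B, 12 bases: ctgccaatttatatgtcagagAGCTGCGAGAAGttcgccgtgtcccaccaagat
Ptprf, 18 bases: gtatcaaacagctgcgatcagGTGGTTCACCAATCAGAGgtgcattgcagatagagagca
The 18 base exons of Ptprd and Ptprf were identical at 16 of 18 bases.

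After quality filters and removal of likely doublets 33118 of 78743 barcodes were analysed, 1551 to 4412 nuclei and 5046810 to 13881724 unique molecular identifiers (UMIs) per animal, and no barcode was shared between libraries. Nuclei were clustered without the 6 genes, and clusters were named where at least 3 markers of a class were raised and its marker score stood clear of the next class, which gave 12 classes with enough nuclei to compare animals, from 605 nuclei (OPC-like) to 3761 (L6 CT-like). The OPC-like class rested on 11 animals, since WT female 3 had 9 such nuclei. In Sst-like clusters 35 and 42, which hold 624 and 359 of the 1060 Sst-like nuclei, and in striatal projection-like cluster 55 (126 nuclei) no marker of the class was among the 10 leading genes, so these names rest on raised markers alone. Another 13936 nuclei lay in 50 clusters that stayed unnamed. DG granule-like and striatal projection-like nuclei were present although the tissue was labelled cortex. Xist and Uty matched the labelled sex in all 12 animals. Myt1l itself was at 834 to 957 CPM (counts scaled to the same total in each sum over nuclei) in WT and 933 to 1026 CPM in Het nuclei, and since a frameshift need not lower the transcript level, this level was not used to check the genotype.

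The 6 genes spanned a wide range of level and length. Ptprd gave 880115 UMIs over all nuclei and Il1rapl1 378390, against 36302 for Il1rapl2, 25685 for Ptprs, 18949 for Il1rap and 2953 for Ptprf. The first 2 are giant genes, at chr4:75941238-78211961 (2271 kb) and chrX:86740870-88115645 (1375 kb), and Il1rapl2 at chrX:137570608-138846946 is 1276 kb long, whereas Il1rap at chr16:26581704-26730117, Ptprf at chr4:118208213-118291405 and Ptprs at chr17:56412426-56476483 are 148, 83.2 and 64.1 kb (mm10). Divided by gene length, the level over all nuclei was 3.67 ± 0.315 CPM per kb for Ptprs (SD, n = 12 animals) and 3.56 ± 0.352 for Ptprd, then 2.54 ± 0.236 for Il1rapl1, 1.18 ± 0.105 for Il1rap, 0.324 ± 0.030 for Ptprf and 0.261 ± 0.0496 for Il1rapl2. Per length and over all nuclei, the value of the short gene Ptprs was near that of Ptprd. In excitatory nuclei Ptprs was at 3.95 and Ptprd at 4.78 CPM per kb, and in inhibitory nuclei at 3.41 and 0.862. Length here is the whole span of the gene. Whether introns were counted is not given, so these values do not rank the genes by transcript number. All other values are CPM, not corrected for length, and the levels of the 6 genes in CPM are compared only within a gene.

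Classes were put in order, for each gene, by the mean of log2(CPM + 1) over animals, and neighbours in that order were compared within animals by an exact two-sided sign-flip test with Benjamini-Hochberg adjustment over 66 pairs. With 12 animals this test cannot give a p below 0.000488. In all 26 of the 66 pairs differed at an adjusted p under 0.05.

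**Figure D1:**
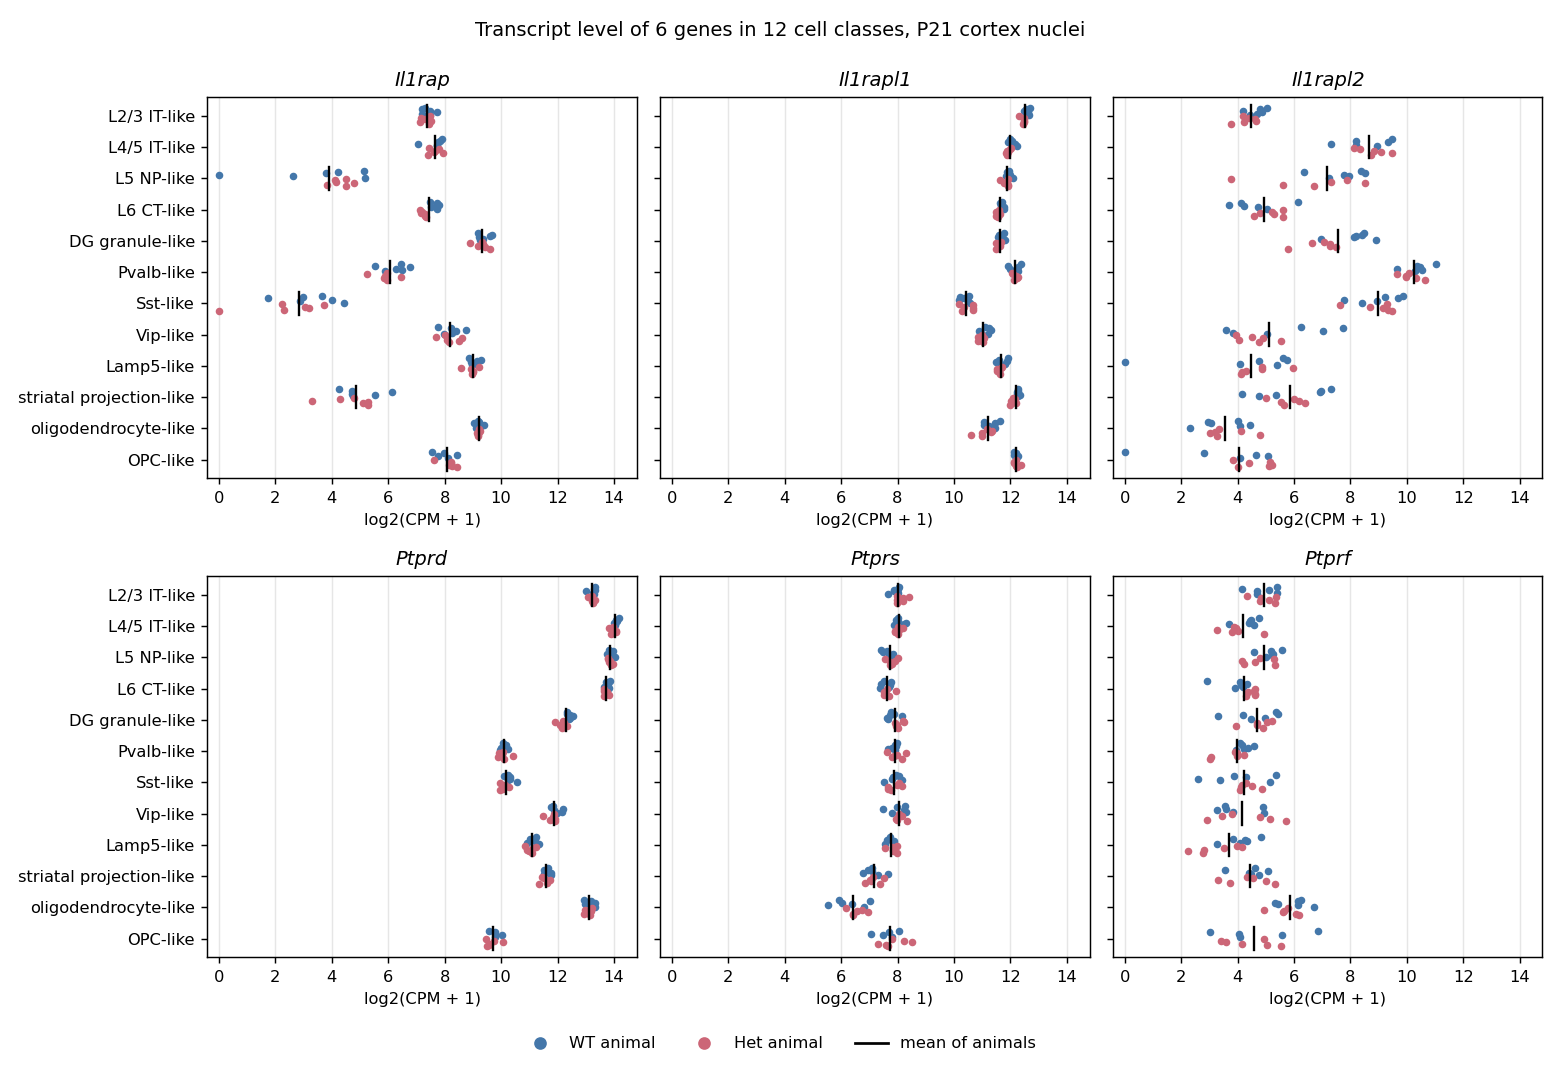
Level of each gene, as log2(CPM + 1) on the horizontal axis, in 12 cell classes. Each dot is an animal (blue WT, red Het) and each black line the mean of the animals. Il1rap and Il1rapl2 spread over the widest range of classes, Ptprd separates excitatory classes at the right from interneurons, and Ptprs has the narrowest range of class means.

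Il1rap was highest in DG granule-like nuclei, oligodendrocyte-like nuclei and Lamp5-like interneurons and near the limit of counting in Sst-like interneurons. In DG granule-like nuclei the lowest, median and highest of 12 animals were 479, 641 and 810 CPM (mean 653 ± 98.9, SD). In oligodendrocyte-like nuclei they were 522, 588 and 679 CPM, and in Lamp5-like nuclei 383, 508 and 623 CPM. Granule and oligodendrocyte nuclei overlapped and did not pass the test of their difference (adjusted p = 0.215, exact sign-flip test), and oligodendrocyte-like nuclei were above Lamp5-like nuclei in 10 of 12 animals, by 0.21 ± 0.22 on the log2 scale (SD, adjusted p = 0.0175).

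A middle group held Vip-like interneurons at 301 ± 69.5 CPM (SD, n = 12), OPC-like nuclei at 274 ± 54.8 (n = 11), and L4/5 IT-like, L6 CT-like and L2/3 IT-like neurons at 204 ± 32.4, 177 ± 29.8 and 165 ± 21.9 CPM. The 3 excitatory classes stood next to each other and neither step between them passed the test, while OPC-like nuclei were above L4/5 IT-like neurons in 10 of 11 animals (adjusted p = 0.0168, exact sign-flip test). Pvalb-like interneurons followed at 68.7 ± 20.6 CPM, below L2/3 IT-like neurons in 12 of 12 animals, and striatal projection-like neurons at 31.1 ± 15.7 CPM, again lower in all 12. L5 NP-like neurons, at 18.4 ± 10.4 CPM, were therefore far from the other cortical excitatory classes. In Sst-like interneurons the median of the animals was 7.07 CPM and the highest 20.8 CPM. Het female 3 had 0 Il1rap UMIs among 377344 there, which allows up to 7.95 CPM, and WT female 1 had 0 among 144388 in L5 NP-like nuclei, which allows up to 20.8 CPM (3 counts, counting error only). From the highest to the lowest class the mean level of Il1rap fell by a factor of 79.5.

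Markers of other cells were measured beside these levels. Excitatory neuron markers were in oligodendrocyte-like nuclei at 3.76% of their level in excitatory nuclei, and inhibitory markers at 1.00% of that in inhibitory nuclei. The mean of Il1rap was higher there than in any neuron class except DG granule-like, and the part of neuron transcripts in it was not tested. Oligodendrocyte markers summed to 402 CPM in DG granule-like nuclei (202 to 728 over animals), against 74.6 to 83.8 CPM in L6 CT-like, L4/5 IT-like and L2/3 IT-like nuclei and 30700 CPM in oligodendrocyte-like nuclei. That marker list holds St18, which was among the 10 leading genes of the DG granule-like cluster, so the sum need not come from oligodendrocytes. The part of oligodendrocyte transcripts in the Il1rap level of granule-like nuclei was not tested. In those nuclei excitatory markers were at 18.6% of their level in excitatory nuclei, and inhibitory markers at 5.90% of that in inhibitory nuclei. The other named excitatory classes had 72.2% to 111.5% and 0.801% to 0.972%. The bearing of this on the levels in granule-like nuclei was not tested.

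Il1rapl1, whose protein drives synapse formation through Ptprd, was high in every class, with no animal below 1163 CPM in any of the 12. L2/3 IT-like neurons were highest, with 5068, 5729 and 6558 CPM as lowest, median and highest of 12 animals, and stood above OPC-like nuclei in 11 of 11 animals (adjusted p = 0.00379, exact sign-flip test). OPC-like (4695 ± 253 CPM, SD, n = 11), striatal projection-like (4673 ± 355, n = 12) and Pvalb-like nuclei (4626 ± 413) had nearly the same means, and neither step between them passed the test. L4/5 IT-like (4079 ± 362), L5 NP-like (3817 ± 301), Lamp5-like (3249 ± 323), DG granule-like (3180 ± 228) and L6 CT-like nuclei (3165 ± 210) formed a gentle slope. Oligodendrocyte-like nuclei (2385 ± 436), Vip-like (2120 ± 227) and Sst-like interneurons (1399 ± 190) were lowest. The whole span was 4.22-fold, and of 11 neighbouring pairs 5 differed.

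Il1rapl2, the close X-linked relative of Il1rapl1, by contrast differed widely between the named classes. Pvalb-like interneurons had 795, 1267 and 2087 CPM as lowest, median and highest of 12 animals, above Sst-like interneurons (547 ± 228, SD) in all 12 (adjusted p = 0.00269, exact sign-flip test). L4/5 IT-like neurons had 442 ± 181 CPM, DG granule-like 220 ± 127 and L5 NP-like 192 ± 120. The remaining 7 classes had means from 12.1 CPM in oligodendrocyte-like nuclei to 69.1 CPM in striatal projection-like neurons. Among them L2/3 IT-like and L6 CT-like neurons, with 22.1 ± 5.58 and 32.7 ± 16.3 CPM stood far below L4/5 IT-like neurons. The ratio of the highest to the lowest class mean was 104. In OPC-like nuclei WT male 1 had 0 UMIs among 26435, which allows up to 113 CPM, and in Lamp5-like nuclei WT female 1 had 0 among 156467, which allows up to 19.2 CPM.

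Ptprd, the presynaptic partner of the proteins of Il1rap and Il1rapl1, had the most ordered pattern, with 10 of 11 neighbouring pairs apart. L4/5 IT-like neurons were highest, with 14345, 16678 and 18439 CPM as lowest, median and highest of 12 animals, followed by L5 NP-like (14978 ± 831 CPM, SD), L6 CT-like (13571 ± 744) and L2/3 IT-like neurons (9668 ± 655). Oligodendrocyte-like nuclei came next at 8961 ± 887 CPM, well above DG granule-like neurons at 5042 ± 606. All interneuron classes were lower, from Vip-like at 3807 ± 487 CPM over Lamp5-like at 2187 ± 226 to Sst-like and Pvalb-like at 1174 ± 152 and 1095 ± 121, a pair that did not pass the test (adjusted p = 0.282, exact sign-flip test). Striatal projection-like neurons had 3117 ± 280 CPM. OPC-like nuclei were lowest at 850 ± 120 CPM, so that cells of the oligodendrocyte lineage held both high and low levels of Ptprd.

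Ptprs, whose protein binds heparan sulfate and chondroitin sulfate as well as synaptic partners, was nearly even. Its class means ran from 265 ± 40.7 CPM (SD, n = 12) in Vip-like interneurons down to 197 ± 22.9 CPM in L6 CT-like neurons over 10 classes, and none of the 9 steps between them passed the test. Classes further apart in that run were not tested, and Vip-like interneurons were above L6 CT-like neurons in every animal. Striatal projection-like neurons (144 ± 27.9 CPM) were below L6 CT-like neurons in 12 of 12 animals, and oligodendrocyte-like nuclei (88.4 ± 25.9 CPM) below those in 11 of 12 (adjusted p = 0.00379, exact sign-flip test). The oligodendrocyte-like class, second in the order of Il1rap, was thus the last for Ptprs.

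Ptprf, which encodes LAR itself, ran the other way. Oligodendrocyte-like nuclei had 29.3, 60.2 and 103 CPM as lowest, median and highest of 12 animals and exceeded the next class, L5 NP-like (30.9 ± 9.37 CPM, SD), in 11 of 12 animals (adjusted p = 0.00509, exact sign-flip test). The other means lay between 13.4 ± 6.79 CPM in Lamp5-like interneurons and 31.3 ± 30.6 CPM in OPC-like nuclei, and no other step passed. The OPC-like mean was raised by WT male 1, at 113 CPM among 13 nuclei, and the median of the 11 animals was 16.9 CPM. By the mean of log2(CPM + 1), which set the order, OPC-like nuclei ranked 5. With 2953 Ptprf UMIs in total, steps between neighbours below the oligodendrocyte-like class were not resolved at this depth. Classes further apart were not tested, and L5 NP-like neurons were above Lamp5-like interneurons in every animal.

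The order depended in part on how nuclei were assigned. When classes were drawn from the marker UMIs of each nucleus alone, an alternative chosen after the data were seen, 15 of the 23 differing pairs that could be compared kept their direction. Those that turned were oligodendrocyte-like over Lamp5-like, OPC-like over L4/5 IT-like and Pvalb-like over striatal projection-like for Il1rap, L5 NP-like over Lamp5-like for Il1rapl1, L5 NP-like over striatal projection-like for Il1rapl2, and L5 NP-like over L6 CT-like, striatal projection-like over Lamp5-like and Pvalb-like over OPC-like for Ptprd. Another alternative, without the upper limits, also lifted the limit on gene number relative to UMI number and added nuclei that were not screened for doublets. In it all 26 kept their direction, while of the pairs that had not differed Il1rapl2 turned to L4/5 IT-like over Sst-like and L5 NP-like over DG granule-like. All 26 pairs kept their direction in WT animals alone and in Het animals alone, but the directions had been set from these same animals.

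Classes with too few nuclei to compare animals are given as pooled counts with exact 95% Poisson intervals that cover counting error only. In 69 microglia-like nuclei Il1rapl1 was at 1230 CPM (1081 to 1394), Ptprd at 697 CPM (587 to 823) and Ptprf had 0 of 200786 UMIs (up to 18.4 CPM). Inhibitory markers in these nuclei were at 23.6% and excitatory markers at 5.70% of their level in inhibitory and excitatory nuclei, and their part in these levels was not tested. In 62 astrocyte-like nuclei Ptprf was at 105 CPM (60.3 to 171), and Ptprd at 409 CPM (313 to 524), but 29 of these nuclei came from Het female 2 and 16 from Het male 1. In 114 fibroblast-like nuclei Ptprd was at 796 CPM (697 to 904) and Il1rapl1 at 274 CPM (218 to 341). Excitatory and inhibitory markers were at 6.29% and 2.70% of the level in their own nuclei in the astrocyte-like nuclei and at 2.75% and 1.23% in the fibroblast-like nuclei.

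Finer clusters, 61 of them with at least 10 nuclei in 6 or more animals, held levels that the named classes did not show. Il1rapl1 was highest in unnamed inhibitory clusters with Meis2, Adamts19 and Frmd7 among their leading genes, at 9886 ± 461 CPM (SD, n = 9 animals) in cluster 36 and 9321 ± 1094 CPM (n = 7) in cluster 50, and Ptprd was at 243 ± 114 CPM in cluster 36. The reverse held in unnamed excitatory cluster 28, led by Reln and Rbm20, where Ptprd reached 30221 ± 5463 CPM (n = 6) and Il1rapl1 only 86 ± 102 CPM. Within the Pvalb-like class Il1rapl2 reached 1930 ± 564 and 1805 ± 468 CPM in clusters 34 and 40 (n = 12 each). It was also among the 10 leading genes of unnamed excitatory clusters 4, 10 and 26 and unnamed inhibitory clusters 65 and 66. Within the L4/5 IT-like class it was among those of cluster 5 but not of cluster 3. Il1rap reached 754 ± 109 CPM (n = 11) and Ptprf 88.3 ± 31.2 CPM in oligodendrocyte-like cluster 70, and Ptprs was highest, at 391 ± 108 CPM (n = 12), in unnamed excitatory cluster 20. These are descriptions without a test, and up to 32.9% of the nuclei of one of these clusters came from a single animal (striatal projection-like cluster 46).

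**Figure D2:**
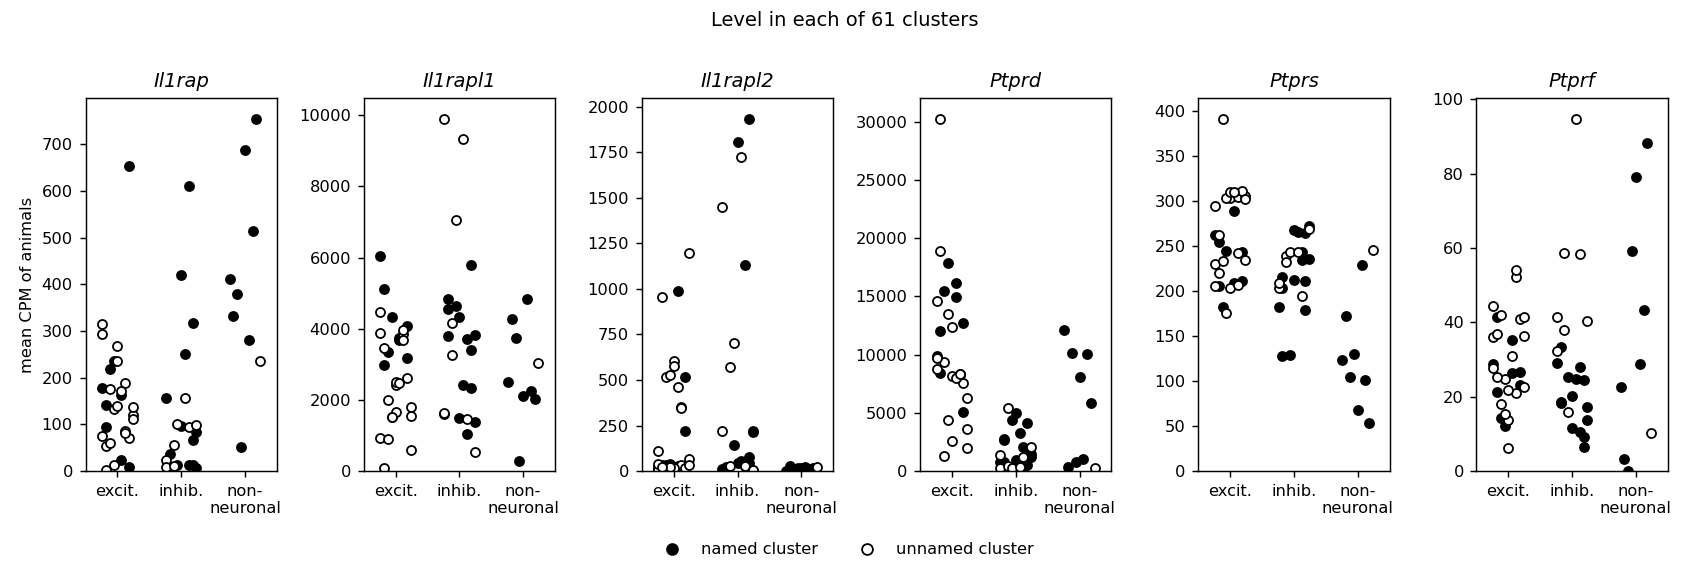
Mean CPM over animals (vertical axis, from 0, a scale of its own for each gene) in 61 clusters grouped as excitatory, inhibitory and non-neuronal. Filled dots are named clusters and open dots unnamed ones. The open dot at 30221 CPM for Ptprd is cluster 28 and the open dots at 9886 and 9321 CPM for Il1rapl1 are clusters 36 and 50.

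Het and WT animals were then compared by edgeR on counts summed per animal in each class, with genes called at a Benjamini-Hochberg adjusted p under 0.05 over all genes of the class and an absolute log2 fold change over 0.2. Over all nuclei a change of class shares and a change of level per nucleus cannot be told apart. There none of the 6 genes was called, nor any of the 16481 genes (0%), of which 1000 had an unadjusted p under 0.05. In excitatory nuclei 0.178% and in inhibitory nuclei 0.27% of all genes were called, and none of the 6. Across the 12 classes the genes passed the low count filter in 57 of 72 cases, and outside Il1rap in L6 CT-like nuclei, the contrast in view when the genes were chosen, none was called. In L6 CT-like nuclei 1.09% of 7854 genes were called, from which nothing is read for Il1rap. The corresponding share was 0.145% in L4/5 IT-like, 0.0695% in DG granule-like, 0.0249% in Lamp5-like, 0.0178% in Pvalb-like, 0.0921% in Sst-like and 0.0772% in Vip-like nuclei. It was 0% in L2/3 IT-like, L5 NP-like, striatal projection-like, oligodendrocyte-like and OPC-like nuclei. There edgeR gave 572, 244, 233, 202 and 103 genes at an unadjusted p under 0.05, of 6920, 3525, 4377, 4333 and 2320 tested.

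**Figure D3:**
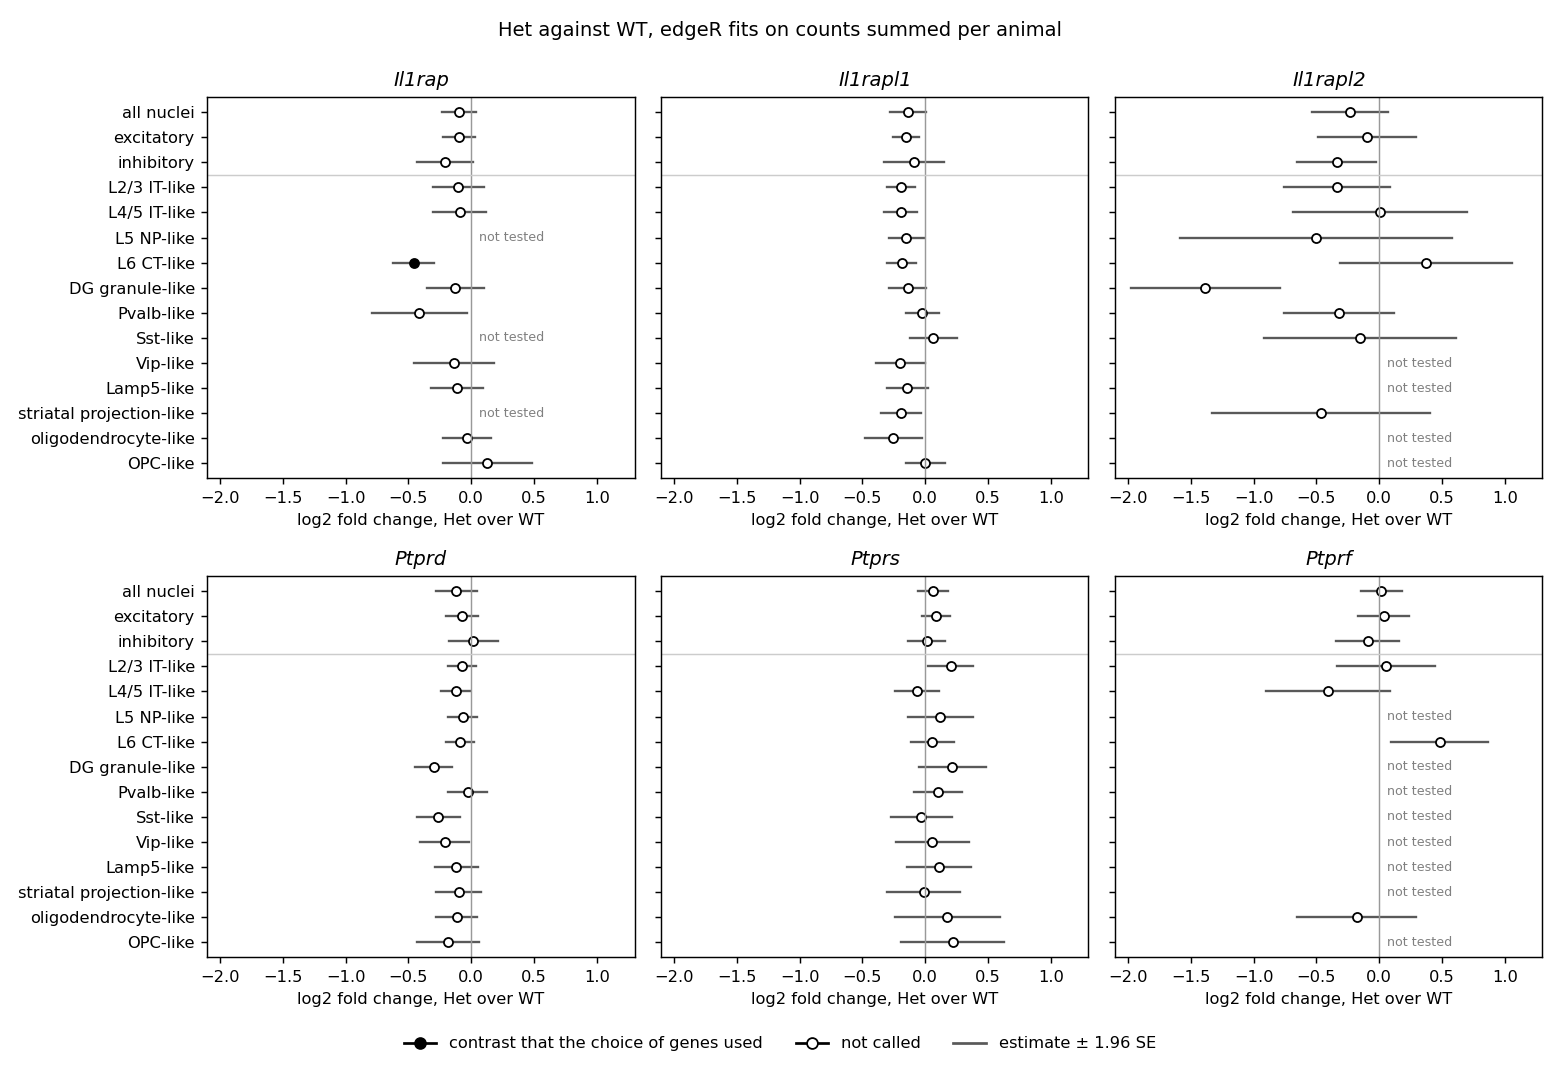
Log2 fold change of Het over WT (horizontal axis) for each gene in 3 broad sums and 12 classes. Circles are edgeR estimates and lines approximate 95% intervals (normal, from the SE), which can leave out 0 where the edgeR p is above 0.05. The filled circle is Il1rap in L6 CT-like nuclei at −0.46, the contrast the choice of genes used, and open circles were not called.

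Il1rap in L6 CT-like neurons, the corticothalamic cells of layer 6, was at 180, 208 and 223 CPM (lowest, median and highest) in the 6 WT animals and at 139, 153 and 161 CPM in the 6 Het animals. Every Het animal lay below every WT animal, as for 0.293% of all genes tested in this class. The means were 202 ± 17.3 and 151 ± 9.43 CPM (SD), a log2 fold change of −0.46 with a standard error (SE) of 0.08, and leaving out each animal in turn moved it between −0.49 and −0.42. The class joined 2 clusters, and cluster 1, with less Il1rap, made up 36.7% to 64.4% of the class in WT and 44.6% to 61.9% in Het animals. Within cluster 1 the lowest, median and highest WT animals were at 122, 168 and 189 CPM and the Het animals at 93.7, 120 and 133 CPM. Within cluster 2 they were at 211, 245 and 284 CPM in WT and 169, 197 and 217 CPM in Het animals. The genotypes thus overlapped within each cluster, with 4 Het animals below every WT animal in cluster 1 and 5 in cluster 2. These values describe the contrast that selected the gene and carry no test.

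Outside L6 CT-like nuclei Il1rap was not called. It could be tested in 8 further classes, with estimates from −0.41 in Pvalb-like to 0.13 in OPC-like nuclei. In DG granule-like nuclei, its highest class, WT animals were at 581, 631 and 810 CPM and Het animals at 479, 641 and 783 CPM (log2 fold change −0.13, SE 0.11, adjusted p = 0.833, approximate 95% interval −0.35 to 0.10). The genotypes overlapped throughout. In oligodendrocyte-like nuclei the WT and Het means were 592 ± 55.8 and 589 ± 19.9 CPM, and in Lamp5-like nuclei 528 ± 57.1 and 497 ± 66.9 CPM (SD, n = 6 each). Whether the fold change in L6 CT-like nuclei differs from those in other classes was not tested.

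Il1rapl1 had negative estimates in 10 of 12 classes, with a median log2 fold change of −0.17, and none was called. In L6 CT-like nuclei WT animals were at 3201, 3304 and 3513 CPM and Het animals at 2873, 2983 and 3191 CPM. The 2 ranges did not meet, in a class where 0.293% of all genes had every Het animal below every WT animal, but the difference was small (−0.19, SE 0.06, interval −0.30 to −0.07) and did not pass (adjusted p = 0.124). In striatal projection-like nuclei WT animals (4828, 4972 and 5169 CPM) also all lay above Het animals (4013, 4452 and 4637 CPM), with an adjusted p of 0.895, an arrangement that 0.137% of all genes had in this class. That class joined several clusters in unlike numbers, such as 56 WT and 175 Het nuclei in cluster 46 and 48 and 55 in cluster 57. The part of this mix in the difference was not tested. In L2/3 IT-like nuclei, its highest class, 5 of 6 Het animals were below every WT animal (WT 6236 ± 329 and Het 5575 ± 252 CPM, SD, −0.19, SE 0.06, adjusted p = 0.195). OPC-like and Sst-like nuclei had estimates of 0.00 and 0.07.

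Il1rapl2 had its largest estimate in DG granule-like neurons. WT animals were at 122, 319 and 473 CPM and Het animals at 53.6, 143 and 177 CPM. WT female 2, at 122 CPM, lay inside the Het range, and the other 5 WT animals above it. The log2 fold change was −1.39 (SE 0.30, adjusted p = 0.135), and the call turned on the test, the filters and single animals. DESeq2, which called 0.243% of all genes in this class, gave an adjusted p of 0.0193. With edgeR it was 0.00779 without the upper limits on nuclei, 8.62e-05 without WT female 2 and 0.0137 without Het female 3. Over the 12 classes those edgeR fits called 0.216%, 0.204% and 0.144% of all gene tests. The fit without WT female 2 left out the WT animal inside the Het range, so nothing is read from its p. Classes by marker UMIs alone held 4 DG granule nuclei and could not be fitted. Over the other alternatives the adjusted p ran from 5.59e-11 without the low count filter to 0.391 with a replicate block (edgeR). Without that filter 0.0716% of all gene tests over the 12 classes were called. Over all alternatives that could be fitted the estimate lay between −1.58 and −1.18. In Pvalb-like interneurons, where the gene is highest, WT animals were at 808, 1369 and 2087 CPM and Het animals at 795, 1044 and 1606 CPM, overlapping (−0.32, SE 0.22, adjusted p = 0.997). L4/5 IT-like neurons had 430 ± 217 CPM in WT and 454 ± 157 CPM in Het animals. The gene could be tested in 8 classes, 6 of them with estimates below 0.

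Ptprd had estimates below 0 in all 12 classes, from −0.30 to −0.03 with a median of −0.12, and edgeR called none. In the sum of inhibitory nuclei the estimate was 0.02. Some alternatives had fewer classes below 0, such as 11 of 12 without the upper limits and 9 of 11 with classes by marker UMIs alone. In DG granule-like neurons WT animals were at 5204, 5496 and 6041 CPM and Het animals at 3895, 4600 and 5187 CPM. All 6 Het animals lay below all 6 WT animals, as for 0.209% of all genes in this class (−0.30, SE 0.08, adjusted p = 0.111), and DESeq2, which called 0.243% of all genes in this class, called this difference (adjusted p = 0.0215), while the edgeR alternatives gave adjusted p values from 0.0628 to 0.613. In Sst-like interneurons the means were 1268 ± 145 and 1081 ± 93.2 CPM (SD, −0.26, SE 0.09, adjusted p = 0.525) with overlapping animals. In L4/5 IT-like neurons, its highest class, the estimate was −0.12 (SE 0.06, interval −0.24 to −0.01, adjusted p = 0.581).

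Gene length moved with these values. Among genes over 1000 kb the median log2 fold change was −0.13 in DG granule-like nuclei (45 genes, 73.3% below 0), −0.09 in L4/5 IT-like, −0.07 in L2/3 IT-like and −0.04 in L6 CT-like nuclei, while genes under 100 kb had medians within 0.02 of 0 in every class. Il1rapl1, Il1rapl2 and Ptprd are all over 1000 kb, and the part of length in their estimates was not tested.

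Ptprs was the member with mostly positive estimates, in 9 of 12 classes, with a median of 0.11 and none called. In L2/3 IT-like neurons WT animals were at 204, 246 and 261 CPM and Het animals at 253, 273 and 342 CPM, so each Het animal exceeded the WT median while the ranges overlapped (0.20, SE 0.09, adjusted p = 0.548). In DG granule-like neurons the means were 223 ± 31.4 and 265 ± 24.8 CPM (SD, 0.22, SE 0.14, adjusted p = 0.731).

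Ptprf was abundant enough to test in 4 classes. In L6 CT-like neurons WT animals were at 6.64, 16.3 and 19.1 CPM and Het animals at 18.7, 23.0 and 23.7 CPM, overlapping at a single animal of each genotype (0.48, SE 0.20, adjusted p = 0.325). Within cluster 1 of that class the WT mean was 14.7 ± 7.42 and the Het mean 27.9 ± 2.95 CPM (SD), and within cluster 2 they were 14.7 ± 3.88 and 13.9 ± 1.91 CPM, values chosen after they were seen and not tested. In L4/5 IT-like neurons the estimate had the opposite sign (−0.40, SE 0.25, adjusted p = 0.712).

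**Figure D4:**
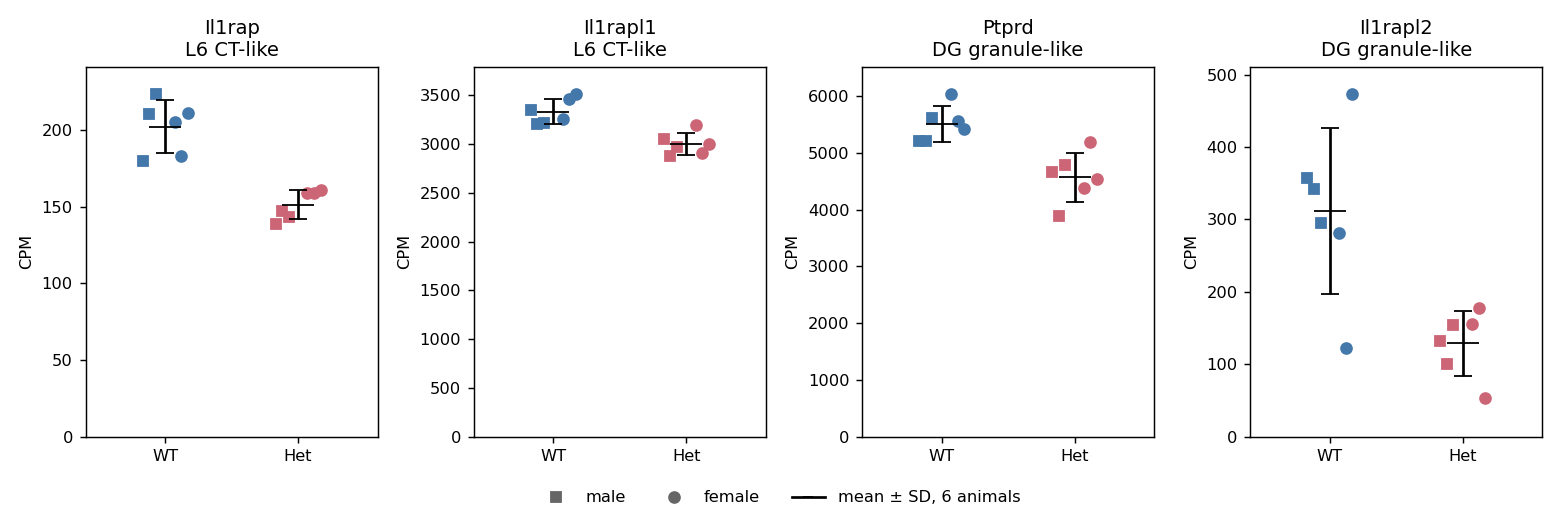
CPM per animal (vertical axis, from 0) for Il1rap and Il1rapl1 in L6 CT-like nuclei and Ptprd and Il1rapl2 in DG granule-like nuclei. Squares are males and circles females, with mean ± SD of 6 animals in black. The genotypes do not overlap in the first 3 panels, and in the last WT female 2, at 122 CPM, lies within the Het animals. Every Het animal lay below every WT animal for 0.293% of all genes in L6 CT-like and 0.209% in DG granule-like nuclei.

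Since Il1rapl1 and Il1rapl2 are X-linked, males and females were compared in the broad sums. None of the 6 genes was called, and none had an unadjusted p under 0.05 in 18 tests, in fits that called 0.0667% of genes in all nuclei, 0.0711% in excitatory and 0.061% in inhibitory nuclei. Over all nuclei Il1rapl1 was at 3558 ± 397 CPM in males and 3435 ± 254 CPM in females (SD, n = 6 each), and Il1rapl2 at 349 ± 78.8 and 318 ± 45.2 CPM.

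The effect of genotype was next compared between the sexes. No member was called in the 3 broad sums or 12 classes, where 3 of 18 and 4 of 57 tests had an unadjusted p under 0.05, against 3.56% to 6.10% of all genes in those fits. The share of all genes called was 0.0289% in L2/3 IT-like, 0.0348% in DG granule-like, 0.0386% in Vip-like and 0.0431% in OPC-like nuclei and 0% in each of the other fits. Il1rapl2 gave 4 of those 7 values, in all, inhibitory, Sst-like and striatal projection-like nuclei, sums that in part hold the same nuclei. In striatal projection-like neurons WT males were at 121, 123 and 159 CPM, WT females at 17.0, 26.1 and 40.6 CPM, Het males at 31.5, 62.8 and 71.2 CPM and Het females at 45.1, 49.2 and 81.8 CPM. WT males thus stood apart from the other 3 groups, with an edgeR interaction of −2.16 on the log2 scale (SE 0.47, adjusted p = 0.227). The gene had few counts in this class, 3 to 50 UMIs per animal and 298 in total. In Sst-like interneurons the same groups had means of 790 ± 173, 350 ± 139, 410 ± 211 and 638 ± 75.2 CPM (SD, n = 3 each, −1.85, SE 0.58, adjusted p = 0.839). Over all inhibitory nuclei they were 834 ± 155, 570 ± 130, 532 ± 20.3 and 590 ± 83.7 CPM (−0.68, SE 0.22, adjusted p = 0.99986).

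**Figure D5:**
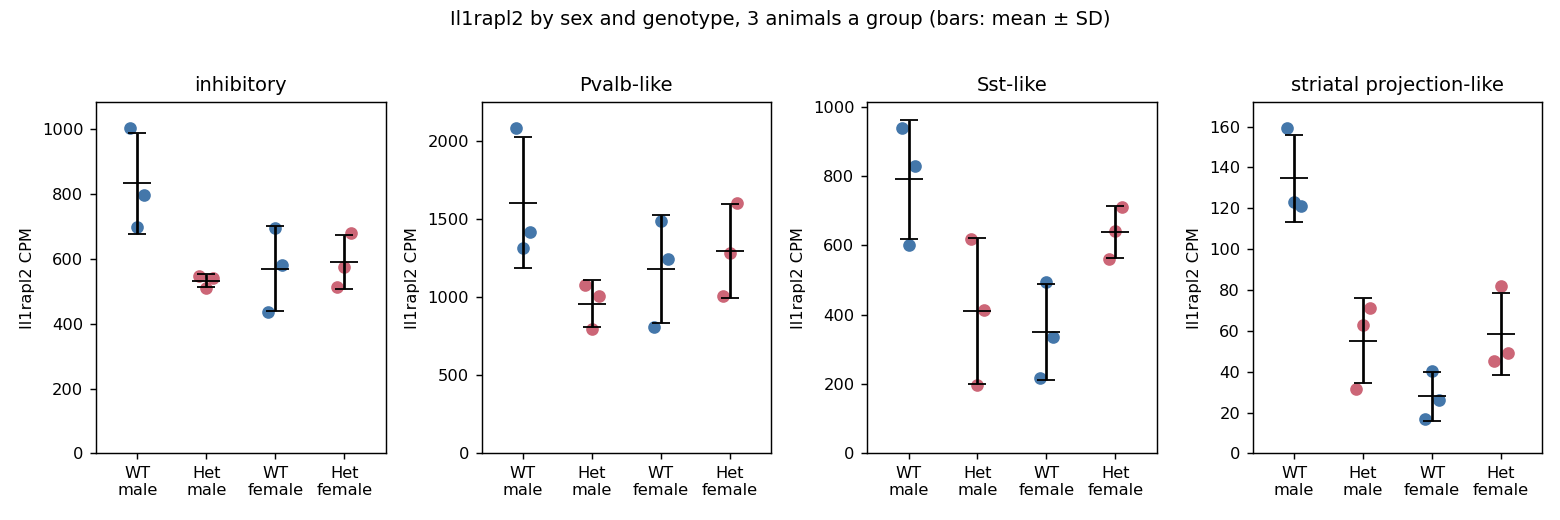
Il1rapl2 CPM (vertical axis, from 0) by sex and genotype in inhibitory, Pvalb-like, Sst-like and striatal projection-like nuclei. Each dot is an animal and black bars are mean ± SD of 3 animals. WT males have the highest mean in each panel, and in the striatal panel their lowest animal, at 121 CPM, lies above all 9 others.

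The other genes of the pathway were followed by 4 lists. Of 13 postsynaptic partners of LAR phosphatases 9 had enough counts to test in any of the 12 classes (62 tests), of 10 cytoplasmic partners 9 (76 tests), of 10 heparan sulfate proteoglycan ligands 6 (30 tests) and of 15 further interleukin-1 system genes 3 (6 tests), and edgeR called none of those tested. Over all nuclei their median log2 fold changes were −0.03, 0.03, 0.11 and 0.11, against −0.003 for all genes. Within classes the median of the proteoglycans tested was below 0 in 9 of 12, down to −0.73 in L5 NP-like nuclei (2 genes) and −0.47 in L4/5 IT-like nuclei (3 genes), and it was −0.12 in excitatory nuclei (7 genes). Lrfn5, a dendritic adhesion protein that binds LAR phosphatases, gave the most counts of the postsynaptic partners (962 ± 141 CPM, SD, n = 12) and had estimates below 0 in 11 of 11 classes tested, down to −0.31, with a lowest adjusted p of 0.125 in L6 CT-like nuclei. Ntrk3, the neurotrophin-3 receptor, followed at 781 ± 50.3 CPM, and Lrfn2 at 212 ± 16.9 CPM had an estimate of 0.35 in L6 CT-like nuclei (adjusted p = 0.117).

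Of the cytoplasmic partners the liprin gene Ppfia2 was at 1036 ± 70.9 CPM and reached 3400 CPM in DG granule-like neurons, the exchange factor gene Trio at 470.2 ± 21.6 and the scaffold gene Cask at 277 ± 14.1 CPM, with lowest adjusted p values of 0.385, 0.794 and 0.457. Of the proteoglycans the glypican gene Gpc6 (395 ± 72.6 CPM) had estimates below 0 in 8 of 9 classes, down to −0.70, and came nearest to a call in Pvalb-like nuclei (adjusted p = 0.0864). Gpc5 (181 ± 54.6 CPM) was highest in OPC-like nuclei, at 4221 CPM, which held 32.4% of its counts, and the syndecan gene Sdc2 was at 39.0 ± 3.83 CPM. The interleukin-1 system apart from Il1rap had few counts over all nuclei: the kinase gene Irak1 was at 23.3 ± 3.47 CPM, the cytokine gene Il18 at 13.6 ± 5.67 CPM (168 CPM in OPC-like nuclei) and the interleukin-1 receptor gene Il1r1 at 5.10 ± 0.658 CPM, though Il1r1 reached 56.9 CPM in DG granule-like neurons, the class in which its co-receptor Il1rap was highest.

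The levels of the 6 genes over the 12 classes did not run in parallel. Pearson correlations of mean log2(CPM + 1) between members, over 12 classes that share libraries, lay between −0.66 (Ptprs and Ptprf) and 0.44 (Il1rapl2 and Ptprs), and Il1rap and Il1rapl2 had −0.52. Among 6022 genes with a class mean of at least 20 CPM, those most like each member were Sfswap, B3gat1 and Lrp1b for Il1rap (0.86, 0.84 and 0.81), Cebpz, Vps37b and Cpped1 for Il1rapl1 (0.82, 0.77 and 0.74) and Luzp1, Ptcd3 and Camta1 for Il1rapl2 (0.86, 0.85 and 0.84). For the phosphatases they were Rasal1, Ankrd27 and Gm49353 for Ptprd (0.89, 0.87 and 0.85), Slc41a2, Cers4 and Kcnj3 for Ptprs (0.96, 0.95 and 0.94) and Tbc1d14, Styx and Fkbp5 for Ptprf (0.91, 0.90 and 0.90). These are descriptions over 12 points and carry no p.

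The promoters were searched for AAGTT, the core letters bound by zinc fingers of the MYT1 family, on both strands in the 250 bases before the start (RefSeq, GRCm38.p6). Of all 32851 promoters 35.3% held it. Of the 6 entries for 5 members (Ptprd is not among them) 2 held it, Ptprf at 191 bases before the start and a Ptprs promoter at 210 and 182 bases before the start on the opposite strand. The promoter of Il1rap, the member chosen for its lower level in Het nuclei, held none. Both are printed 5′ to 3′ in the direction of the gene, with capitals for the motif read on the opposite strand.
Il1rap, chr16:26581455-26581704, plus strand: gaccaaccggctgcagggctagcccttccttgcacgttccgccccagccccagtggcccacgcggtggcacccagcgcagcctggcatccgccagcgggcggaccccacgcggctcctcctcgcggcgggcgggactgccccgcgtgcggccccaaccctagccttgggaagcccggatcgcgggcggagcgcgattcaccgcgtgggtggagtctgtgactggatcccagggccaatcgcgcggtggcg
Ptprs, chr17:56476481-56476730, minus strand: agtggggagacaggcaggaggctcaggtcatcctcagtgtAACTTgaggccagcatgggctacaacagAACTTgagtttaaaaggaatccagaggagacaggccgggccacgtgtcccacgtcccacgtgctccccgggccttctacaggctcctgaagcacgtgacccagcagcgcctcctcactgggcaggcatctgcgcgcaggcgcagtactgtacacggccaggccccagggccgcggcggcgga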

How the data were processed

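Cortical nuclei of 12 mice were sequenced on shared plates. Per the labels and methods the authors aligned to mm10 and made UMI counts with ScaleRna. Whether introns were counted is not given in the sources used here. The deposited expected counts (92.6% whole, tolerance 1e-06) were summed per animal and class and rounded. Following the authors' limits, barcodes with 800 to 6000 UMIs, 300 to 3000 genes, at most 1% mitochondrial counts and a log gene number at least 0.9 times the log UMI number were kept (34862 of 78743, 44.3%, fewer than the nuclei the study states). The 5% highest simulated doublet scores were removed (1744). Deposited totals were 23429386 to 59958572 UMIs per animal.

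Nuclei were clustered (leidenalg 0.10.2) without the 6 genes, their partners and Myt1l, and named from marker UMIs. Vector counts stayed out of totals. Main tests were edgeR 4.0.16 quasi-likelihood fits (TMM, filterByExpr, genotype only) on animals with at least 10 nuclei, at least 3 per genotype. DESeq2 1.42.0 was an alternative. SE is the fold change over the root of F. Scripts were tested on simulated data.

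The 6 genes, lists and tests were chosen with earlier results of these data known. Named were the 6 members, any called partner, the 3 most abundant partners per list and the 3 genes most like each member. Other alternatives changed normalization, filter, terms, nuclei and classes, or left out animals.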

Additional observations from a re-analysis of the deposited data

Results flagged for a closer look

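In 9 of 180 groups of 5 or 6 animals of a genotype, an animal stood apart by the 95% limit of Dixon's test, and chance marks about 1 in 20 groups. In excitatory nuclei Ptprs was at 302 CPM in Het male 2, with the other 5 Het animals at 243 to 259. Il1rap in inhibitory nuclei was at 166 CPM in WT male 3, against 105 to 124 in the others. Il1rapl1 in L2/3 IT-like nuclei was at 5068 CPM in Het male 1, below 5637 to 5753 in the others, and Ptprd in the same class was at 8220 CPM in WT female 1, below 9878 to 10338. Il1rapl2 in L6 CT-like nuclei was at 68.8 CPM in WT male 1, against 12.1 to 32.3. In L4/5 IT-like nuclei Il1rap was at 131 CPM in WT female 1, below 212 to 242, and Ptprf at 29.5 CPM in Het female 3, above 8.64 to 15.3. Il1rapl2 in Lamp5-like nuclei was at 61.5 CPM in Het male 2, above 16.3 to 28.0. Ptprd in Pvalb-like nuclei was at 1389 CPM in Het female 1, above 939 to 1089. None of these groups carries a called difference.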

How the results depend on the processing

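The number of member and class tests called in Het against WT was 1 as reported, the contrast in view when the genes were chosen, whose passing supports nothing. Over the 12 classes 0.19% of all gene tests were called as reported, 0.0716% without the filter on low counts, 0.168% in the replicate block, 0.262% with DESeq2, 0.216% without the upper limits, 0.0192% with marker UMIs alone and 0.0838% to 0.267% with each animal left out. Against these shares, the member count was 2 without the filter on low counts, 3 with DESeq2, 2 without the upper limits and 0 with classes drawn from marker UMIs alone. It was between 1 and 2 with each animal left out (2 without WT female 2 and without Het female 3, where Il1rapl2 in DG granule-like nuclei was added). The estimate of Il1rap in L6 CT-like nuclei, a description, lay between −0.70 and −0.40 over the 9 alternatives that left no animal out. Partner calls numbered 0 as reported, 4 without the filter, 2 in the replicate block, 2 with DESeq2, 1 without the upper limits, 1 with marker UMIs alone and 0 to 2 with each animal left out, all of them Gpc5, Gpc6 or Lrfn2. Replicate numbers did not pair the animals (correlations of same-numbered animals from −0.56 to 0.20), and the replicate block left the member count at 1.

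Of the neighbouring class pairs 26 differed as reported, 42 without the upper limits, and 0 in the 6 WT or the 6 Het animals alone, where 6 animals can scarcely pass the adjustment over 66 pairs. Without the upper limits log2 differences turned for Il1rapl1 OPC-like over striatal projection-like (−0.11), Il1rapl2 Sst-like over L4/5 IT-like (−1.147) and DG granule-like over L5 NP-like (−0.56), and Ptprf L6 CT-like over L4/5 IT-like (−0.69). With marker UMIs alone they turned for Il1rap oligodendrocyte-like over Lamp5-like (−0.04206), OPC-like over L4/5 IT-like (−0.62) and Pvalb-like over striatal projection-like (−0.28), Il1rapl1 L5 NP-like over Lamp5-like (−0.8124), Il1rapl2 L5 NP-like over striatal projection-like (−0.48) and Lamp5-like over OPC-like (−3.053), Ptprd L5 NP-like over L6 CT-like (−0.10), striatal projection-like over Lamp5-like (−0.06605) and Pvalb-like over OPC-like (−2.683), and Ptprf L5 NP-like over L2/3 IT-like (−2.806). Those classes, added after the data were seen, held other nuclei, such as 1973 OPC and 437 L6 CT, and the cause was not tested. Ptprf and the classes with few UMIs are limited by depth.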
